A study of Homo sapiens with 2 samples.

Results

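Box C/D small nucleolar RNAs (snoRNAs) were taken as all genes with a peak whose GENCODE 29 symbol begins with SNORD. They comprised 127 gene entries of the 20048 with a peak in either library, out of 278 SNORD entries in the annotation. Copies of at least 90% sequence identity were treated together, which joined the 278 entries into 191 groups, 119 of them with a peak. The data were peaks of small-RNA sequencing reads in 2 libraries (replicates 1 and 2), which form 1 group named TRACER, a word left without explanation in the labels. Both came from HEK293T, an established human embryonic kidney cell line, treated with doxycycline at 3 ug/mL for 24 hours, and the labelled material was RNA of the cytoplasm. The labels name neither a gene under the control of doxycycline nor an untreated or input library, so no condition was compared with another. Nothing in them tells if each library had a culture of its own, and the spread between replicates may thus be technical. The stated aim of the series concerns RNA elements that recruit CCR4-NOT, the complex that shortens poly(A) tails of messenger RNA.

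Box C/D snoRNAs are short non-coding RNAs of the nucleolus. Most are cut out of introns of host genes, and a box C motif near the 5′ end and a box D motif near the 3′ end are held together by the proteins SNU13, NOP56, NOP58 and fibrillarin. The sequence ahead of box D, or of an internal copy of it, pairs with a target RNA, usually ribosomal RNA (rRNA), where fibrillarin methylates a ribose. A few, such as U3 (SNORD3) and U8 (SNORD118), instead act in the cleavage of precursor rRNA, and others have no known target and are called orphans. Box H/ACA snoRNAs (SNORA symbols) guide pseudouridine and have another fold.

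The mature sequences of 7 RNAs among the 20 leading groups are shown, which are not the 7 with the most reads. Peaks of each printed RNA's own entry formed 1 block at the same place in both libraries, or, for SNORD3A, ran over nearly its whole length. Not all leading RNAs were like this. SNORD15A had a peak at each end, and in SNORD22 only 8 nt lay under peaks of both libraries. The sequences are GENCODE 29 transcripts on GRCh38, 5′ to 3′, written as DNA. Capitals mark bases under peaks of the RNA's own entry in both libraries. Peaks listed under a host gene are not marked and can be wider, such as 88 nt in replicate 1 and 91 nt in replicate 2 under RPL3 on SNORD83B.
SNORD3A (U3, 217 nt, chr17:19188016-19188232, plus strand): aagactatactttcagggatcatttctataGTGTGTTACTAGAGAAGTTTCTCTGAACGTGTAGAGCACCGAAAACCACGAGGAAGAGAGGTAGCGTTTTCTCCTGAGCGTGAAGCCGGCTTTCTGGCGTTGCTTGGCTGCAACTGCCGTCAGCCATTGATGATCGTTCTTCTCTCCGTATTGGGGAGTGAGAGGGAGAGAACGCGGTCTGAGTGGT
SNORD65 (73 nt, chr17:16441226-16441298, plus strand, in LRRC75A-AS1, over an exon of some of its transcripts): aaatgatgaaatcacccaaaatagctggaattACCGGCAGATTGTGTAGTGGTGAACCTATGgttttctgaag
SNORD83A (95 nt, chr22:39315213-39315307, minus strand, intron of RPL3): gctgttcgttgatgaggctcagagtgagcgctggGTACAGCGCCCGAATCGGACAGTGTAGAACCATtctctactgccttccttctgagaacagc
SNORD83B (93 nt, chr22:39313819-39313911, minus strand, in RPL3, over an exon of some transcripts): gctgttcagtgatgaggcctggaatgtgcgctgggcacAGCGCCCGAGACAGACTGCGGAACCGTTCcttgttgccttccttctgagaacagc
SNORD30 (70 nt, chr11:62853663-62853732, minus strand, in SNHG1, over an exon of some transcripts): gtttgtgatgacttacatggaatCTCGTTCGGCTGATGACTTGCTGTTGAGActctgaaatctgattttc
SNORD82 (70 nt, chr2:231460371-231460440, minus strand, intron of NCL): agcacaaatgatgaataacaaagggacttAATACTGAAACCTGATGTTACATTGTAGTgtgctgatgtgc
SNORD35A (86 nt, chr19:49491175-49491260, plus strand, in RPL13A, over an exon of some transcripts): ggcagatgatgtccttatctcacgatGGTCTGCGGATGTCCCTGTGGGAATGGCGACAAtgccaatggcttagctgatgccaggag

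The label was checked on these letters. The box C core TGATGA lay within the first 15 nt of 52.9% of the 119 groups with a peak, and the box D motif CTGA lay within the last 15 nt of 92.4%. Both were searched on the RNA strand only. Of 147 SNORA genes, 0.680% held the box C core and 3.40% the box D motif there, and of 19922 protein-coding genes, by their shortest transcript, 0.407% and 7.38% did. Of the 72 SNORD groups without a peak, 59.7% held the box C core and 88.9% the box D motif.

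Peaks on box C/D snoRNAs repeated between the libraries. Replicate 1 had peaks in 115 groups and replicate 2 in 108, and 104 groups had one in both. Among these 104, the own peaks of SNORD9, SNORD12B, SNORD66, SNORD93 and SNORD101 shared no base between the libraries. The 104 are 87.4% of the 119 groups (exact 95% binomial interval 80.1 to 92.8), beside 80.2% of all genes with a peak, a value inside the interval. Other small RNA families were alike, with 89.7% of SNORA genes and 90.5% of genes of Cajal body RNAs (SCARNA symbols) that had a peak. Replicate 1 held 151 distinct SNORD peaks and replicate 2 held 138, with a median width of 27 nt in each. Of the peaks of replicate 1, 96.0% (91.6 to 98.5) met a peak of replicate 2 over 1 nt or more. Of those of replicate 2, 97.1% (92.7 to 99.2) met one of replicate 1. The peak met could be listed under any gene, so peaks of a host entry on the same snoRNA counted. Within their own library, 86.8% and 86.2% of SNORD peaks were also overlapped by another gene's peak. The part of such double listing in these shares was not tested. Over all distinct peaks the shares were 60.6% and 55.9%. For SNORA peaks they were 95.3% and 97.6%, and for SCARNA peaks 97.0% and 100%, so this repeat was not particular to box C/D snoRNAs. Where only peaks with a deposited p at or under 1e-05 were kept, 54 groups had a peak and 35 had one in both libraries, and the correlation between libraries of group reads had a Pearson coefficient of 0.262.

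SNORD peaks were also taller than most, and overlap rose with the number of reads. The median SNORD peak held 31 reads in replicate 1 and 28 in replicate 2, against 6 for all peaks in each library. Among peaks of 10 to 49 reads, 97.9% of SNORD peaks and 91.3% of other peaks overlapped the other library in replicate 1, and 97.8% and 87.0% in replicate 2. With 50 reads or more, all 41 SNORD peaks of replicate 1 and all 37 of replicate 2 did, as did 98.6% and 99.0% of the other peaks. Here too, a peak under any gene's entry in the other library counted. The intervals cover counting error only and treat peaks as independent, although peaks on the U3 copies share reads.

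SNORD peaks held 0.935% of all peak reads in replicate 1 and 0.721% in replicate 2, a mean of 0.828% ± 0.152 (SD, n = 2). Without the copies of U3 the shares were 0.289% and 0.226%. Reads in a peak are whole and not normalised, and 1 read can be counted in neighbouring peaks and at several loci, so sums of them are not sequencing depth, which is unknown. For a group, the reads of its copy with the most reads were used, summed over that copy's peaks.

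U3, which acts in the first cleavages of precursor rRNA, led all groups. Its main copy SNORD3A (ENSG00000263934) held 2534 reads in replicate 1 and 2020 in replicate 2, or 1168 and 931 reads per 100 nt. This was 36.2% and 35.6% of all group reads. The sums run over 4 and 3 adjoining peaks, which can share reads, and by the largest peak alone U3 held 1066 and 938 reads, 20.4% and 21.5% of the largest peaks of all groups. Next was U8 (SNORD118, ENSG00000200463, 134 nt, within TMEM107), which acts in maturation of large-subunit rRNA (shown in Xenopus), and which is mutated in a human brain disease with calcifications and cysts. It held 392 and 349 reads, or 293 and 260 per 100 nt, in 1 peak from position 46 to 102 in replicate 1 and 45 to 97 in replicate 2. U3 stood above U8 in both libraries by either measure of reads, with a gap between them larger than the spread of either.

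**Figure D1:**
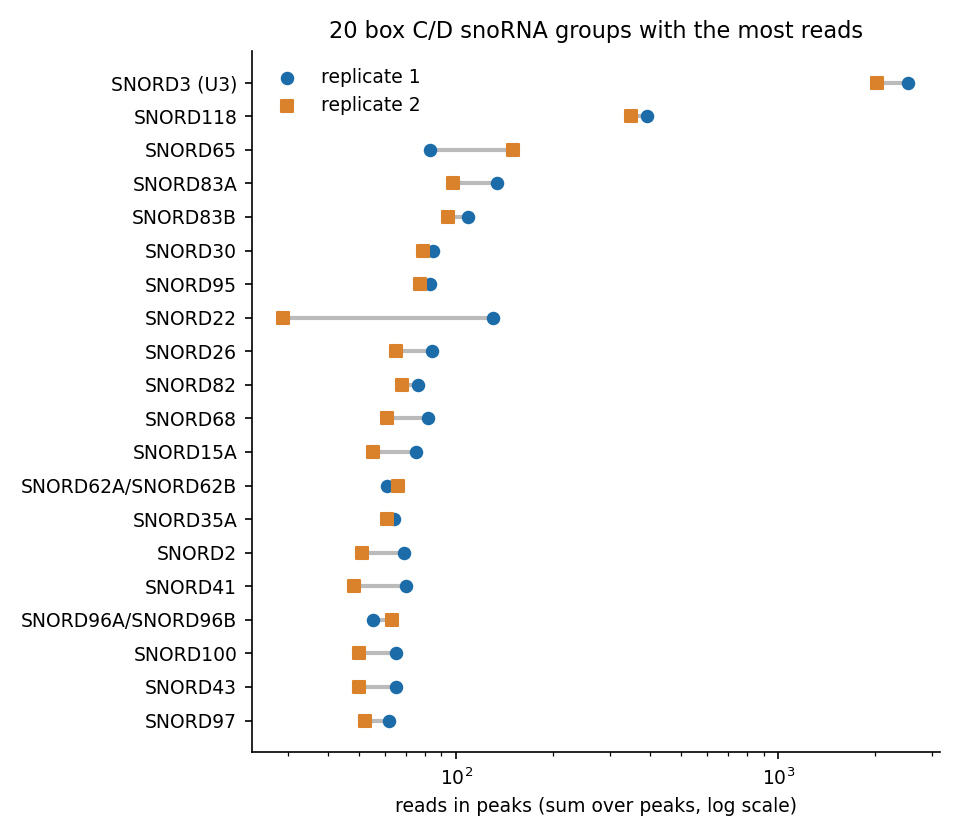
Reads in peaks (log scale) of the 20 box C/D snoRNA groups with the most reads, in replicate 1 (circles) and replicate 2 (squares), with a line joining both values of a group. U3 with 2534 and 2020 reads and SNORD118 with 392 and 349 stand to the right of the others, and SNORD22 with 130 and 29 has the widest gap.

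Below them the values ran together. SNORD83A, an orphan, held 134 reads in replicate 1 and 98 in replicate 2 (122 ± 26.8 per 100 nt, SD, n = 2), and its neighbour in RPL3, SNORD83B, also an orphan, held 109 and 94 (109 ± 11.4 per 100 nt). Their sequences shared 78.5% identity and were counted apart. In both RNAs the block under peaks of its own entry in both libraries lay at a like place, positions 35 to 67 of SNORD83A and 39 to 67 of SNORD83B.

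SNORD30, a methylation guide for large-subunit rRNA, held 85 and 79 reads (117 ± 6.06 per 100 nt), and its neighbour SNORD26 in SNHG1 held 84 and 65 (99.3 ± 17.9). SNORD95, within RACK1, held 83 and 77 (118 ± 6.24), and SNORD82, within the nucleolin gene NCL, held 76 and 68 (103 ± 8.08). Ordered by reads per 100 nt, from SNORD83A over SNORD95, SNORD30, SNORD83B and SNORD82 to SNORD26, each differed from its neighbour by less than the larger of their SDs.

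SNORD65, a guide for small-subunit rRNA, held 83 reads in replicate 1 and 150 in replicate 2. In replicate 1 they formed 1 peak from position 32 to 62. In replicate 2 the same stretch was called as 2 adjoining peaks, positions 33 to 44 and 45 to 62, with 75 reads each, and SNORD12C likewise had 32 reads in 1 peak and 64 in peaks of at most 32. By the largest peak, SNORD65 stood at 83 and 75 reads, so the difference in its sum came with the number of peaks.

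Apart from SNORD22, the others of the 20 leading groups held between 48 and 82 reads in either library. SNORD68 (82 and 61), SNORD15A (75 and 55), SNORD41 (70 and 48), SNORD2 (69 and 51), SNORD100 and SNORD43 (65 and 50 each) and SNORD97 (62 and 52) were higher in replicate 1, as was SNORD35A (64 and 61). SNORD62A with its identical copy SNORD62B (61 and 66) and SNORD96A (55 and 63) were higher in replicate 2. Of all 119 groups, 25 had at least 100 reads over both libraries, 63 had at least 50 and 99 had at least 20.

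The copies of U3 differ by few bases, and several of their peaks broke off where the bases differ. SNORD3B-1 held 1799 reads in replicate 1 and 1477 in replicate 2, SNORD3B-2 held 1838 and 1527, SNORD3C held 1741 and 1497, and the 2 entries of SNORD3D at 1 locus held 1361 and 1136, and 1349 and 1114. All of these lie on chromosome 17. The divergent copies SNORD3E, SNORD3G, SNORD3H and SNORD3J, at 73.7% to 84.3% identity to SNORD3A, had no peak.

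Positions are counted from 1 at the 5′ end of SNORD3A, with its base first. SNORD3B-1 and SNORD3B-2 carry A78C, SNORD3C carries G108A, and SNORD3D carries A4G, C53T and A78C. Peaks of SNORD3A ran from position 30 to 220 in replicate 1, as 4 adjoining peaks of 1066, 260, 696 and 512 reads. In replicate 2 they ran from 31 to 221, as 3 peaks of 938, 601 and 481. Both stretches pass the 3′ end of the RNA, which is 217 nt long. In SNORD3B-1 the 5′ segment was split into peaks at 30 to 72 and 80 to 124 with 160 and 408 reads in replicate 1, and at 36 to 67 and 84 to 122 with 104 and 281 in replicate 2, on either side of position 78.

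In SNORD3C no peak lay between positions 100 and 133 in replicate 1 or between 100 and 136 in replicate 2, the stretch with its own base. In SNORD3D the first peak of its own entries began at position 94 in replicate 1 and 97 in replicate 2, past all its differing bases. A further stretch of SNORD3D, after position 121, had no peak of its own entries and holds no differing base. Under the entry AC007952.4, adjoining peaks of 408, 729 and 505 reads ran over that stretch in replicate 1, so this gap depends on the gene entry. In replicate 1 a peak of SNORD3B-2 began at position 77, so gaps and differing bases did not coincide everywhere.

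Where the copies are identical they held nearly the same reads. The last peak, which starts between positions 182 and 187, held 512 reads in SNORD3A, 514 in SNORD3B-1, 491 in SNORD3B-2 and 501 in SNORD3C in replicate 1, and 481, 481, 481 and 482 in replicate 2. Reads there cannot be assigned to 1 copy. The deposited file names name a filter on mismatches and a multimapping limit of 5, and the part of this filter in the gaps was not tested. The first bases of U3, part of the region that pairs with precursor rRNA, were under no peak in any copy, while an internal TGATGA at 158 to 163 and the box D motif at 209 to 212 were covered in both libraries.

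**Figure D2:**
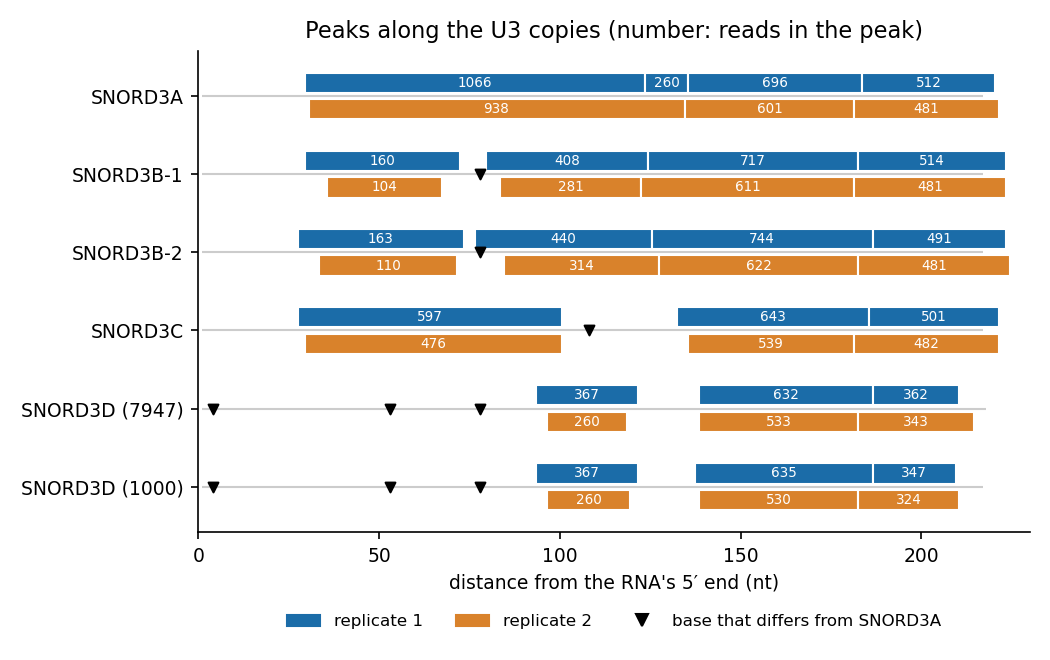
Peaks listed under each U3 copy's own entry, by distance from the RNA's 5′ end in nt, with replicate 1 above and replicate 2 below each line. Numbers are the reads in each peak, and triangles mark bases that differ from SNORD3A. The 2 entries of SNORD3D are told apart by the last digits of their identifiers. SNORD3A is covered without a gap, and the peaks of SNORD3B-1 and SNORD3C leave out the position of their differing base.

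Counts of 4 lists of known snoRNAs stand beside 127 of all 278 SNORD entries (45.7%) with a peak and 111 (39.9%) with one in both libraries, or 81.4% and 71.2% of the 156 entries outside the imprinted orphans. Of 19 entries of the rRNA processing list (the SNORD3 copies, SNORD13, SNORD14A to SNORD14E, SNORD22 and SNORD118), 13 had a peak and 12 had one in both libraries, 6 of them near-identical U3 entries. SNORD13 (U13), which guides acetylation of small-subunit rRNA, held 64 and 48 reads. Copies of U14, known in yeast for processing of small-subunit rRNA, held fewer. SNORD14E had 33 and 25 reads, SNORD14B 12 and 15 and SNORD14A 10 and 14. SNORD14C had no peak in replicate 1 and 21 reads in replicate 2, and SNORD14D had none in either.

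No peak was listed for any of 122 imprinted or brain-enriched orphans. These were SNORD64, SNORD107, SNORD108, SNORD109A and SNORD109B, with 9 copies of SNORD113, 30 of SNORD114, 48 of SNORD115 and 30 of SNORD116. SNORD115 and SNORD116 lie in the Prader-Willi region, and SNORD113 and SNORD114 in the DLK1-DIO3 region. Under another gene's entry, 1 summit lay in a copy, SNORD114-3, with 3 reads in replicate 1. The orphans make up 122 of the 278 annotated entries, and so most of those without a peak. Many are alike in sequence, with the SNORD115 entries in 5 copy groups, SNORD116 in 10, SNORD114 in 19 and SNORD113 in 9. The file names give a multimapping limit of 5, and whether reads of such copies were dropped before peak calling was not tested.

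Of 6 snoRNAs often used to normalise small-RNA assays, 5 had a peak in both libraries, a count too small to set apart from the 71.2% above. SNORD95, SNORD68 and SNORD96A were among the leading groups above. SNORD72 held 44 and 18 reads, SNORD48 held 10 and 13, and SNORD61 had no peak of its own. Under its host RBMX, summits within SNORD61 held 37, 31 and 24 reads in replicate 1 and 30 and 17 in replicate 2. The 3 snoRNAs of RPL13A known from lipotoxic stress in hamster and mouse cells all had peaks in both libraries, with 35 and 35 reads for SNORD32A, 29 and 28 for SNORD33 and 64 and 61 for SNORD35A. Of all 40 annotated groups within ribosomal protein genes, 36 did. SNORD44, SNORD47 and other snoRNAs of GAS5 carry no SNORD symbol in this annotation and were not analysed here.

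Across the 119 groups, log2(reads + 1) in replicate 1 and replicate 2 correlated with a Pearson coefficient of 0.645 and a Spearman coefficient of 0.844, and across all 20048 genes with 0.842 and 0.906. These are descriptions, since snoRNAs share the same libraries. Of the 104 groups in both, 72 held more reads in replicate 1, 28 in replicate 2 and 4 were equal. The median log2 ratio of replicate 1 to replicate 2 was 0.19, against -0.17 over all genes in both. The ratio stayed within 1.5 times for 85 groups and went past 2 times for 8.

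**Figure D3:**
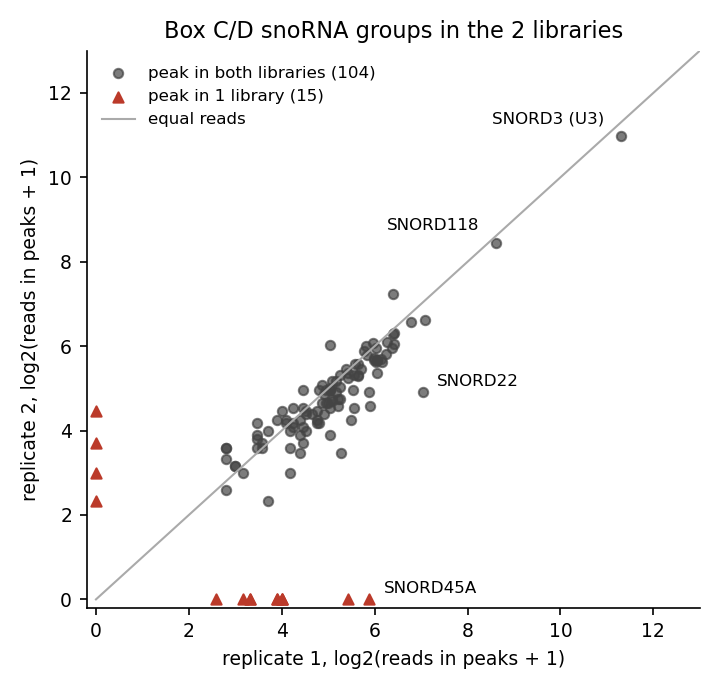
log2(reads in peaks + 1) of each box C/D snoRNA group in replicate 1 (horizontal) and replicate 2 (vertical), with a line of equal reads. The 104 groups with a peak in both libraries follow the line from the lowest values up to U3, and the 15 groups with a peak in 1 library (triangles) lie on the axes.

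Among groups with at least 20 reads over both libraries, the 5 with the largest fold between them, a missing peak counted as 0 reads, were SNORD45A (58 reads in replicate 1 and no peak in replicate 2), SNORD56 (42 and no peak), SNORD14C (no peak and 21), SNORD22 (130 and 29) and SNORD66 (38 and 10). SNORD22 (U22), needed for small-subunit rRNA in Xenopus, had 3 peaks in replicate 1, of 43, 48 and 39 reads, and 1 of 29 reads in replicate 2. The peak of replicate 2, at positions 115 to 122, lay at the place of the last peak of replicate 1, at 112 to 122. Under the host SNHG1 the libraries differed less, with summits within SNORD22 of 67, 67, 46 and 25 reads in replicate 1 and 30, 50 and 35 in replicate 2. The own peaks of SNORD66 shared no base between the libraries. Under its host EIF4G1, summits within SNORD66 held 26 and 60 reads in replicate 1 and 22 and 40 in replicate 2.

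Most groups without a peak in 1 library were under a host gene's entry there. Of the 15 groups found in 1 library, 11 in replicate 1 and 4 in replicate 2, 13 had a peak listed under another gene at the same snoRNA in the other library. For SNORD45A these were peaks of 58 and 27 reads under RABGGTB in replicate 2, where the same host entry had 68 and 36 in replicate 1. For SNORD14C it was 33 reads under HSPA8 in replicate 1. The exceptions were SNORD36A with 15 reads and SNORD13E with 5. Counted by position and not by gene entry, 127 groups had a summit, 121 of them in both libraries, and the Pearson coefficient between libraries was 0.878.

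Listing under a host was the rule for these genes. In replicate 1, 131 of 151 SNORD peaks (86.8%) were overlapped by a peak of another gene on the same strand, and in replicate 2, 119 of 138 (86.2%). Only 1 and 4 of these had identical bounds, so the same stretch was cut into peaks differently for the snoRNA and for its host. Another gene's entry held 201 peaks with a summit in a snoRNA in each library. Of these, 126 of 184 in replicate 1 and 120 of 181 in replicate 2 held more reads than the snoRNA's own largest peak, with a median ratio of 1.15 and 1.13. They were also wider, with a median of 42 and 40 nt, against 27 nt for SNORD peaks in each library.

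The peaks of the host entries kept to the bounds of the snoRNA. In replicate 1, 131 of the 201 (65.2%) lay entirely inside it, and 93.5% did so when 5 nt past either end were allowed. In replicate 2 the values were 70.6% and 94.0%. The farthest reached 9 nt past the 5′ end and 10 nt past the 3′ end in replicate 1, and 10 and 11 nt in replicate 2. These peaks were chosen by their summits, which lie within the snoRNA by definition, but their ends were free.

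**Figure D4:**
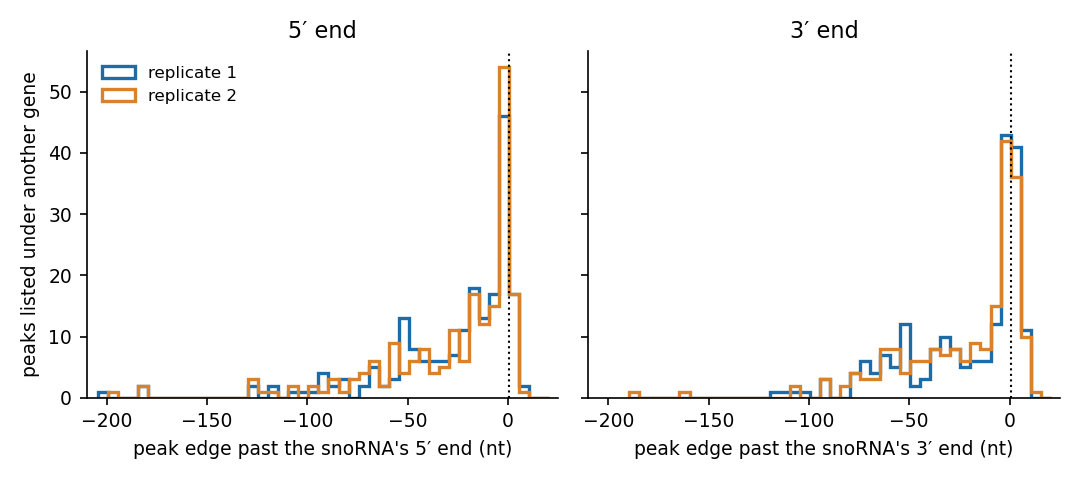
Where peaks listed under another gene, but with a summit in a box C/D snoRNA, begin and end, in nt past the snoRNA's 5′ end (left) and 3′ end (right), with negative values inside the RNA. Bars of 5 nt count peaks of replicate 1 and replicate 2. Both distributions stop within 11 nt past the annotated ends.

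By the annotation, 116 of the 119 groups lay inside a host gene on the same strand. Of these, 48 lay in introns of every host transcript, and 68 overlapped an exon of at least 1 of them, 8 of them a UTR. Of all 191 annotated groups, 119 had a peak. Within ribosomal protein genes 38 of 40 annotated groups had one, within other protein-coding genes 57 of 72, and within non-coding genes 21 of 69. The imprinted orphans, none with a peak, made up 44 of those 69 groups, so that 21 of the other 25 had one. Among groups with a peak, medians per 100 nt in replicates 1 and 2 were 44.9 and 35.4 reads within ribosomal protein genes, 37.8 and 27.8 within non-coding genes, and 25.5 and 21.2 within other protein-coding genes. The ranges of the group means overlapped, at 6.72 to 122, 6.34 to 160 and 1.48 to 276 reads per 100 nt, and no test was made.

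Several hosts contributed sets of snoRNAs. SNHG1, a non-coding RNA whose introns hold a snoRNA cluster, had 6 groups with 389 and 267 reads in sum, among them SNORD30, SNORD26, SNORD22, SNORD25 (49 and 39), SNORD28 (41 and 43) and SNORD27 (no peak in replicate 1 and 12 reads in replicate 2). RPL3, which encodes a protein of the large ribosomal subunit, held 3 groups with 308 and 242 reads, SNORD83A, SNORD83B and SNORD43. RPL13A held 4, with 164 and 150 reads, SNORD32A, SNORD33, SNORD35A and SNORD34 (36 and 26). Levels varied within a host. Per 100 nt, SNORD35A averaged 72.7 ± 2.47 reads and SNORD32A 41.7 ± 0 (SD, n = 2), although both come from RPL13A.

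Peaks listed under the snoRNAs' own entries lay toward the 3′ side of the RNAs but off both ends. The median summit was at 0.6 of the length from the 5′ end in replicate 1 and 0.561 in replicate 2. With each RNA divided into 3 segments of equal length, the 5′ segment held 19.2% of summits in replicate 1 and 25.4% in replicate 2, the middle one 37.1% and 37.0%, and the 3′ one 43.7% and 37.7%. The exact intervals of the middle segment, 29.4 to 45.3 and 28.9 to 45.6, overlapped those of the 3′ segment, 35.7 to 52.0 and 29.6 to 46.3. With 1 summit per group, that with the most reads, the mean shares were 41.7% in the middle and 35.3% in the 3′ segment, so which of them held more was not resolved. The order also turned at p at or under 1e-05 (40.9% and 39.4%) and without U3 (38.0% and 37.8%). By position, whatever the gene entry, mean shares were 27.6% in the 5′, 32.0% in the middle and 40.5% in the 3′ segment. Of the 201 peaks under another gene's entry in each library, 52 and 47 passed the 3′ end, and 19 and 18 the 5′ end.

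Coverage by base, counted from peaks under the snoRNAs' own entries only, gave the same picture. Without U3, peaks covered 32.3% of all bases of 114 RNAs in replicate 1 and 31.8% of 107 in replicate 2. From the 5′ to the 3′ end, in steps of 5% of the length, coverage began at 7.73% and 12.0%, reached 48.8% and 46.2% between 70% and 75% of the length, and ended at 13.1% and 14.1%. SNORD33, with its peak at positions 3 to 21 in replicate 1 and 3 to 20 in replicate 2, and SNORD14B, with a peak from its 5′ end, show that single RNAs departed from this profile.

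Box H/ACA snoRNAs from the same libraries had another profile. Of 147 SNORA genes, 107 had a peak, and 65.1% of their summits in replicate 1 and 66.9% in replicate 2 lay in the middle segment, against 13.95% and 13.71% in the 3′ segment. Their median summit was at 0.462 and 0.461 of the length. The difference between the families in the middle segment was larger than the spread between replicates. Without U3 the mean share of box C/D RNAs there was 38.0%. Exact intervals were not used for this comparison, since they treat peaks as independent. Near-identical U3 copies held 21 of the SNORD peak entries in replicate 1 and 20 in replicate 2. The median RNA with a peak was 81 nt long among SNORD genes and 134 nt among SNORA genes, and the part of this difference in length was not tested.

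**Figure D5:**
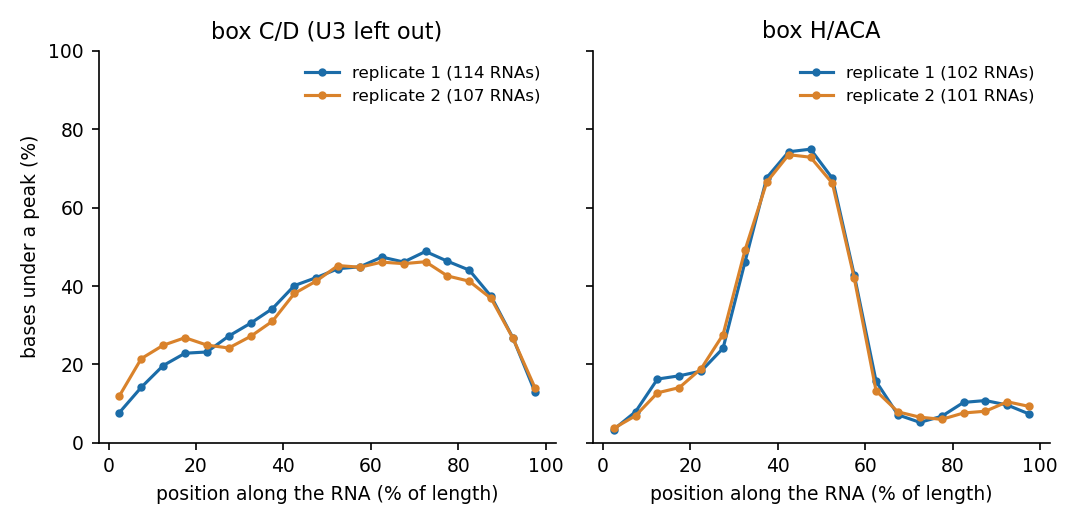
Percent of bases under a peak of the RNA's own entry, for box C/D snoRNAs without U3 (left) and box H/ACA snoRNAs (right). Positions run along the RNA from the 5′ end at 0% to the 3′ end at 100% of its length. Box C/D coverage rises to 48.8% in replicate 1 and 46.2% in replicate 2 between 70% and 75% of the length, and box H/ACA coverage is highest just before the midpoint.

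Under peaks of the snoRNAs' own entries, box C was covered less than the average base, and box D slightly more. In the 60 RNAs with box C near the 5′ end, 23.3% of its bases lay under a peak in replicate 1 and 27.5% in replicate 2. For box D near the 3′ end the shares were 36.4% in 105 RNAs and 35.8% in 100, beside 32.3% and 31.8% of all bases. In only 1 RNA of 60 in replicate 1 and 2 in replicate 2 were both boxes covered in full by such peaks. Peaks under host entries were left out of these shares. Some of them took in both boxes, such as a peak of 69 nt under SNHG1 on SNORD30 in replicate 1. Over all RNAs, 15.1% and 20.1% of the first 15 nt and 31.5% and 31.2% of the last 15 nt were covered.

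Internal CTGA motifs have the letters of box D and of its internal copy D′. Under peaks of the snoRNAs' own entries, they had a higher share of covered bases than the internal part of all RNAs. CTGA occurred away from both end windows in 67.2% of the 119 groups, against 59.7% of groups without a peak, 40.8% of SNORA genes and 24.6% of protein-coding genes in the first 80 nt of the shortest transcript, the median length of the 119 RNAs. SNORA genes are longer, with a median of 134 nt. Without U3, 60.0% of the bases of 105 internal motifs lay under a peak in replicate 1 and 58.8% of those of 100 in replicate 2, against 37.2% and 35.1% of all internal bases. In SNORD30 and SNORD82, printed above, an internal CTGA within the letters CTGATG lies in capitals. SNORD65, SNORD83A, SNORD83B and SNORD35A, also printed, hold no internal CTGA, and their capitals lie elsewhere. A match of 4 letters is a description and does not show a functional box, and the motifs of 1 RNA share its peaks. Bases flanking the motifs were not measured, and coverage also varied with position along the RNA.

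The nucleolar and nuclear origin of these RNAs stands beside a label of cytoplasmic RNA. The nuclear-retained MALAT1 held 1096 and 821 reads in peaks, and NEAT1, of nuclear paraspeckles, held 267 and 235. How much nuclear RNA the material held was not tested, and with no input library, enrichment over total RNA could not be measured for any snoRNA.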

How the data were processed

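Both libraries were small-RNA sequencing libraries of HEK293T cells. Per the submitters' processing notes, cutadapt 4.2, UMI-tools 1.1.4 and STAR 2.7.11 were used with GRCh38, and the file names point to CLIPper, with version and annotation not given in the sources used here. Peaks were called by the authors in each library on its own. The deposited score column is a p-value per peak, with no adjustment stated, and the other measurement is a whole number of reads that the authors wrote in each peak's name (smallest value 3), not normalised.

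Genes, hosts and sequences came from GENCODE 29. A summit was the middle of the deposited thick interval, and positions listed under several gene entries were counted once. Copies were joined at 90% identity of their shortest transcripts. Overlap between libraries needed 1 nt on the same strand with a peak of any gene entry. Intervals are exact 95% binomial, and 1 group of 2 libraries allowed no test between conditions. Software was scipy 1.17.1, matplotlib 3.10.9, pandas 2.3.3 and numpy 2.4.6 under Python 3.11.15. Only the steps for peak overlap and for joining copies were tested on simulated data.

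Named RNAs are the 20 groups with the most reads, list members with a peak, snoRNAs of SNHG1 and of the other host with the most reads (TMEM107), and the 5 largest differences among groups of at least 20 reads. SNORD9, SNORD12B, SNORD93, SNORD101, SNORD13E, SNORD36A, SNORD12C, SNORD34 and SNORD114-3 were named after their values were seen. The members and lists were chosen with earlier results of these data known. Alternatives used stricter peaks, positions in place of gene entries, other rules for copies and overlap, each library alone, and, chosen after seeing the data, all SNORD genes without U3.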

Additional observations from a re-analysis of the deposited data

How the results depend on the processing

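Of 70 alternative values, 48 stayed within 1.5 times (counts), 1 SD between libraries (shares and positions) or 0.05 (the correlation) of the reported one, and 22 did not. The cause was not tested. With peaks at p at or under 1e-05 only, 54 groups had a peak, 35 in both libraries, the Pearson coefficient was 0.262, the median summit 0.540 and the middle segment held 40.9% of summits. With peaks of 10 reads or more, the share of peak reads was 1.04%, the overlap 97.7%, the coefficient 0.569 and the middle segment 38.9%. By position, whatever the gene entry, they were 1.36%, 95.6%, 0.878 and 32.0%, with 27.6% of summits in the 5′ segment. A reciprocal overlap of 50% gave 85.6%, and each gene entry on its own a coefficient of 0.770. Without U3, an alternative chosen after seeing the data, the share was 0.257%, the coefficient 0.591 and the middle segment 38.0%. Without positions also listed under another gene the middle segment held 37.3%. With 1 summit per group it held 41.7% and the 3′ segment 35.3%, so the order of these segments turned, as it did at p at or under 1e-05 and without U3, with 39.4% and 37.8% in the 3′ segment.

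From 1 library alone, the groups with a peak were 108 to 115, the share 0.721% to 0.935%, the median summit 0.561 to 0.6, and the 5′, middle and 3′ segments held 19.2% to 25.4%, 37.0% to 37.1% and 37.7% to 43.7%. No paired analysis was possible because the labels give 1 group. The depth is not known, 2 libraries limit the precision, and a snoRNA without a peak cannot be called absent.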

Other observations

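SNORD13P1, a copy of SNORD13 at 89.4% identity, just under the 90% that joins copies, held 45 reads in replicate 1 and 30 in replicate 2, and SNORD13 held 64 and 48. SNORD15A had a peak at each end of the RNA in both libraries, at positions 2 to 40 and 123 to 135 in replicate 1 and 3 to 39 and 123 to 145 in replicate 2. These RNAs were chosen after their values were seen.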
